A study of Mus musculus with 18 samples.

Results

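The TNF superfamily ligands examined here were 10 genes, Tnf, Lta, Ltb, Cd40lg, Fasl, Tnfsf4, Tnfsf8, Tnfsf9, Tnfsf11 and Tnfsf14, of 37991 genes in the count files. They were chosen with earlier results of these data known. The counts of ligands called, given below beside shares of all tested genes, are therefore descriptions and no test of enrichment. All 10 had a row in each of the 18 RNA-seq libraries, and all passed the filter on low counts that left 17240 genes to be tested. CD4 T cells were enriched from spleens of male and female Tg4-H2u mice aged 6 to 12 weeks, a line made transgenic for a TCR that recognizes a peptide of myelin basic protein (MBP). Tolerized mice received 7 subcutaneous injections of the 4Y form of this peptide in rising doses, and control mice with predominantly naive cells received PBS. There were 3 biological replicates in each of 6 groups. N0 (naive) and T0 (tolerized) cells were taken after a final injection of PBS, NAg and TAg cells 2 h after a final injection of 4Y peptide antigen (Ag), and NPI and TPI cells after 2 h in culture with PMA and calcium ionophore (PI). PI acts downstream of the TCR and of CD28, so that the naive and tolerized cells can be compared with and without the need for signaling through these receptors.

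Ligands of this family are trimeric proteins, mostly anchored in the membrane, that signal to a neighboring cell through receptors of the TNF receptor superfamily. On activated CD4 T cells they carry much of what is called help: CD40 ligand (Cd40lg) licenses B cells and dendritic cells, TNF and the lymphotoxins (Lta, Ltb) drive inflammation and the organization of lymphoid tissue, and Fas ligand (Fasl) kills cells that carry Fas. OX40 ligand (Tnfsf4), CD30 ligand (Tnfsf8) and 4-1BB ligand (Tnfsf9) engage costimulatory receptors of T cells, RANKL (Tnfsf11) acts on dendritic cells and osteoclast precursors, and LIGHT (Tnfsf14) binds HVEM and the lymphotoxin beta receptor.

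Library totals ranged from 10758571 to 24119489 counts with a median of 12268935.5, and the values below are counts divided by the TMM-scaled library size. Calls required an adjusted p below 0.05, a difference of 2-fold or more and, in the higher group, a mean normalized count over 50. The T cell markers Cd3d, Cd3e, Cd3g, Cd4, Cd28 and Lck were high in every group, with a summed normalized count of 11886 to 13547 in NAg and of at least 16555 in the libraries of every other group. Of these 6 markers, 5 were called lower in NAg against N0. Markers of other cells were present and differed between groups. The 8 neutrophil markers summed to 58.5 to 163 in N0 and to 1684 to 3046 in T0, and the 8 B cell markers to 3800.0 to 6903 in N0, 1099.6 to 3150 in NAg, 5221 to 8674 in T0 and 1982 to 3212 in TAg. Most of the B cell sum was Ighm, with means of 3995 in N0 and 1383 in NAg. In NAg against N0, 1 of the 8 B cell markers was called lower and their median log2 fold change was 0.15. In TAg against T0, 3 were called lower, with a median of -1.04. By reads of Y-linked genes, all NPI and TPI libraries, 2 of 3 T0 libraries and 1 of 3 TAg libraries were from male mice and the others from female mice, so that sex and PI treatment cannot be told apart in NPI against N0 or NAg. With sex as a covariate the log2 fold changes in TPI against T0 were 4.65 for Cd40lg, 6.49 for Tnf and 5.47 for Tnfsf4, beside 4.63, 6.55 and 5.50 without it. In these bulk samples fewer cells that express a ligand and less RNA per cell cannot be told apart.

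**Figure D1:**
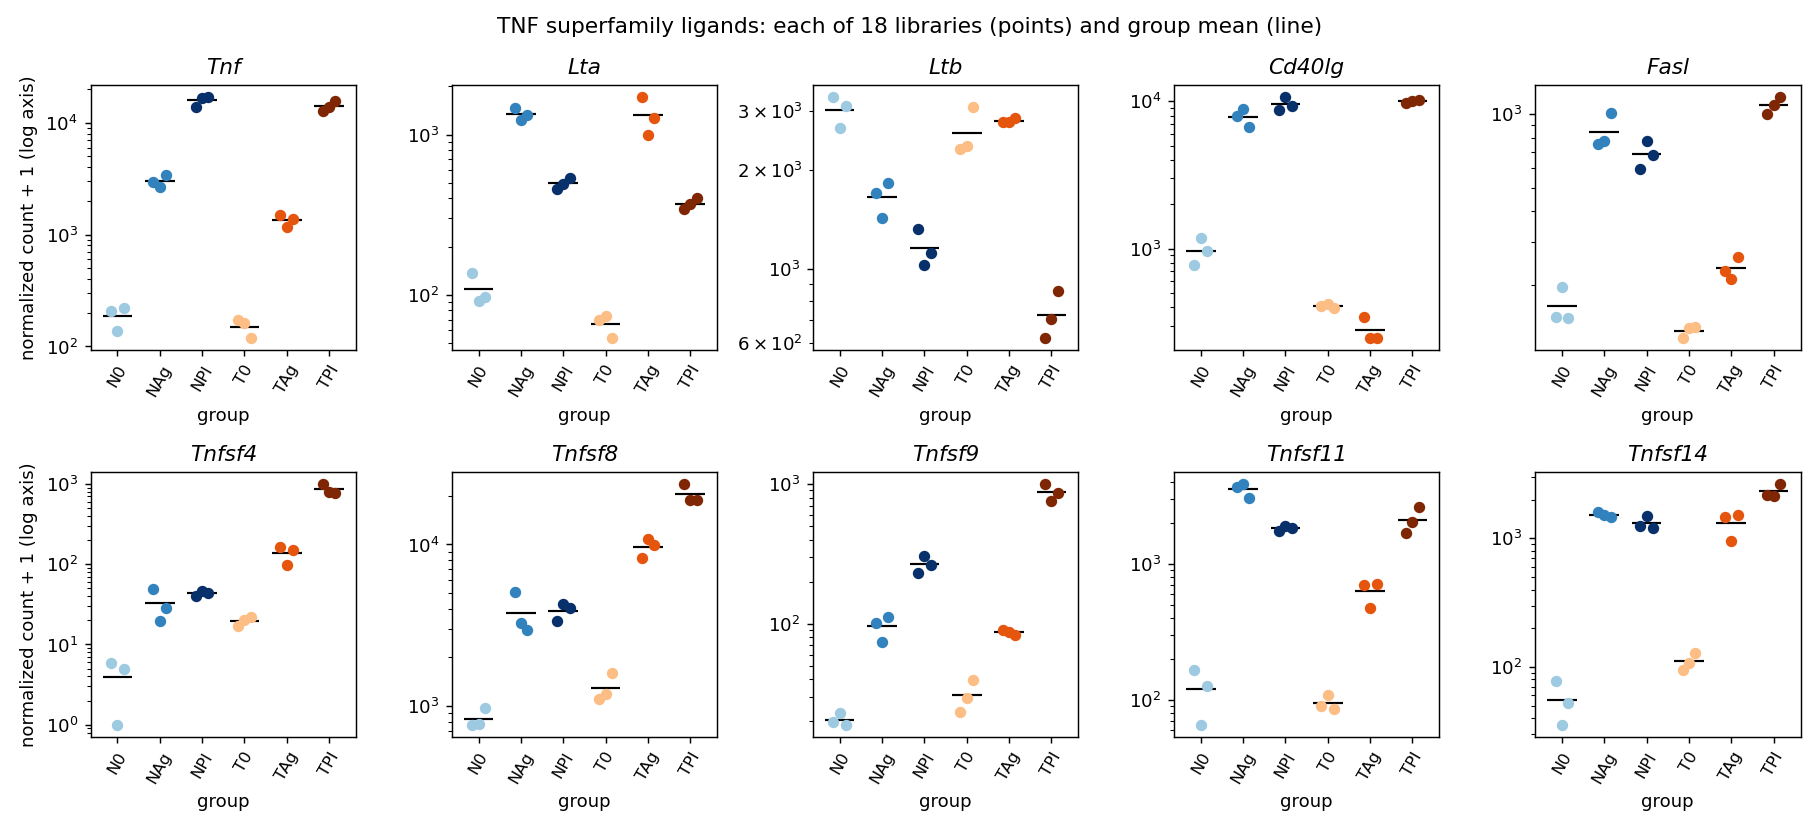
Normalized counts (plus 1, log axis) of the 10 ligands in each library (points) by group, with group means (lines, n = 3). Tnf, Cd40lg, Fasl and Tnfsf11 were high in NAg and in both PI groups and lower in TAg, Tnfsf4 and Tnfsf8 were higher in TAg and TPI than in NAg and NPI, and Ltb was lowest in TPI.

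The resting repertoire was dominated by lymphotoxin beta in both cell states. To compare ligands with each other, normalized counts were divided by exon length (per kb) and expressed as a share of the sum over the 10 ligands. Ltb made up 59.2% ± 4.51 (SD, n = 3) of this sum in N0 and 62.7% ± 2.55 in T0, followed in N0 by Cd40lg with 23.1% ± 5.73 and Tnfsf8 with 6.50% ± 0.763. In T0, Tnfsf8 held 12.5% ± 1.02 and Cd40lg 12.1% ± 1.69, with overlapping levels. In N0 the order Ltb, Cd40lg, Tnfsf8 and Tnf had no overlap between neighbors, while Tnf, Fasl, Lta, Tnfsf11 and Tnfsf14 followed with neighbors that overlapped. Tnfsf9 and Tnfsf4 were the lowest of the 10 in N0.

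Tolerization alone moved few of these genes past the limits for a call. At an adjusted p under 0.05 in edgeR, without the fold and count limits, 2 were higher and 2 lower. Cd40lg was the single ligand of 10 called in T0 against N0, as lower, and none was called higher, against 0.644% of tested genes called lower and 2.61% called higher. At an unadjusted p under 0.05 edgeR had 4 ligands higher and 3 lower, and DESeq2 called 1 higher, Tnfsf14. The Cd40lg counts were 767, 1179 and 961 in N0 and 407, 416 and 394 in T0. The T0 libraries were all below the N0 libraries, a 2.39-fold decrease (log2 fold change -1.25 ± 0.15 SE, adjusted p = 2.76e-05). With a score of neutrophil and macrophage markers as a covariate the log2 fold change was -1.09 with an adjusted p of 0.262. This score was 0.57 to 1.05 in N0 and 2.87 to 3.33 in T0, so that it cannot be told apart from cell state here. With the female libraries only, of which T0 has 1, the log2 fold change of Cd40lg was -1.30. Of the other ligands, Lta (log2 fold change -0.72 ± 0.23, adjusted p = 0.0375) and Tnfsf14 (1.0 ± 0.28, adjusted p = 0.0228) differed by less than 2-fold. Tnfsf14, which lay just under the limit at 1.99-fold, passed it without N0 replicate 1 (1.33) or without T0 replicate 1 (1.09). Tnfsf4 was at 4.95, 0 and 3.97 in N0, from at most 5 reads in a library, and at 15.9, 19.4 and 21.1 in T0 (log2 fold change 2.59 ± 0.56, adjusted p = 0.0034), under the limit on counts. The value was 2.04 without N0 replicate 2 and 3.13 without N0 replicate 1. The median log2 fold change over the 10 ligands was -0.28 beside -0.08 over all tested genes.

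Antigen challenge of naive cells raised most of the family. In NAg against N0, 8 of 10 ligands were called higher and 0 lower by edgeR, where 14.2% of tested genes were called higher and 16.2% lower. At an unadjusted p under 0.05, 9 were higher and 1, Ltb, was lower, and DESeq2 also called 8 and 0. The median log2 fold change was 3.17 over the ligands and 0 over all tested genes. Tnfsf11 rose most, 29.5-fold, from 165, 64.7 and 125 in N0 to 3630.3, 3863 and 3041 in NAg (log2 fold change 4.88 ± 0.28, adjusted p = 1.21e-09). Tnfsf14 rose 27.9-fold, from 77.3, 34.5 and 51.6 to 1604, 1525 and 1459. Per kb, Tnfsf11 then overlapped with Tnf and was below Cd40lg, whereas Tnfsf14 stayed below Lta without overlap. Tnf rose 15.9-fold, Lta 12.4-fold, Cd40lg 8.11-fold, Fasl 5.17-fold, Tnfsf9 4.83-fold and Tnfsf8 4.49-fold, with adjusted p from 2.45e-13 to 7.5e-07 and no overlap between the groups for any of them. Tnfsf4 reached 47.9, 18.8 and 27.5 and stayed under the count limit (log2 fold change 3.32 ± 0.53, adjusted p = 1.92e-05), with 2.72 without N0 replicate 2 and 3.82 without N0 replicate 1. Ltb moved the other way, from 3033 ± 328 to 1648 ± 201, 1.84-fold lower (adjusted p = 2.1e-05), and passed the 2-fold limit without N0 replicate 2 (log2 fold change -1.02). In this comparison the 6 T cell markers had a median log2 fold change of -1.19, and one of 0.58 in TAg against NAg, where that of Ltb was 0.77, and their part in the result was not tested. Cd40lg then made up 44.5% ± 4.16 of the summed ligand signal per kb, and Ltb 7.76% ± 1.30.

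In tolerized cells the same challenge raised most of the family as well, but not Cd40lg or Fasl beyond the limits. Of the 10 ligands 7 were called higher in TAg against T0 and 0 lower, beside 12.1% of tested genes called higher and 11.3% lower. At an unadjusted p under 0.05, 8 were higher and 1, Cd40lg, was lower, and DESeq2 also called 7 and 0. The median log2 fold change was 2.79 over the ligands and -0.05 over all tested genes. Lta rose 20.3-fold, Tnfsf14 12-fold, Tnf 9.0-fold, Tnfsf8 7.46-fold, Tnfsf4 7.21-fold, Tnfsf11 6.66-fold and Tnfsf9 2.90-fold, with adjusted p from 8.82e-12 to 9.98e-07. The Cd40lg counts were 407, 416 and 394 in T0 and 340.2, 246 and 246 in TAg, lower in all TAg libraries by 1.46-fold (log2 fold change -0.55 ± 0.16, adjusted p = 0.00699). Fasl was 1.81-fold higher (0.86 ± 0.14, adjusted p = 1.55e-05), short of the 2-fold limit. Ltb was at 2587 ± 434 in T0 and 2809 ± 51.5 in TAg, with overlapping libraries and an adjusted p of 0.471. In TAg the largest shares per kb belonged to Tnfsf8 with 33.4% ± 5.69 and Ltb with 24.2% ± 0.896, and Cd40lg held 2.89% ± 0.521.

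**Figure D2:**
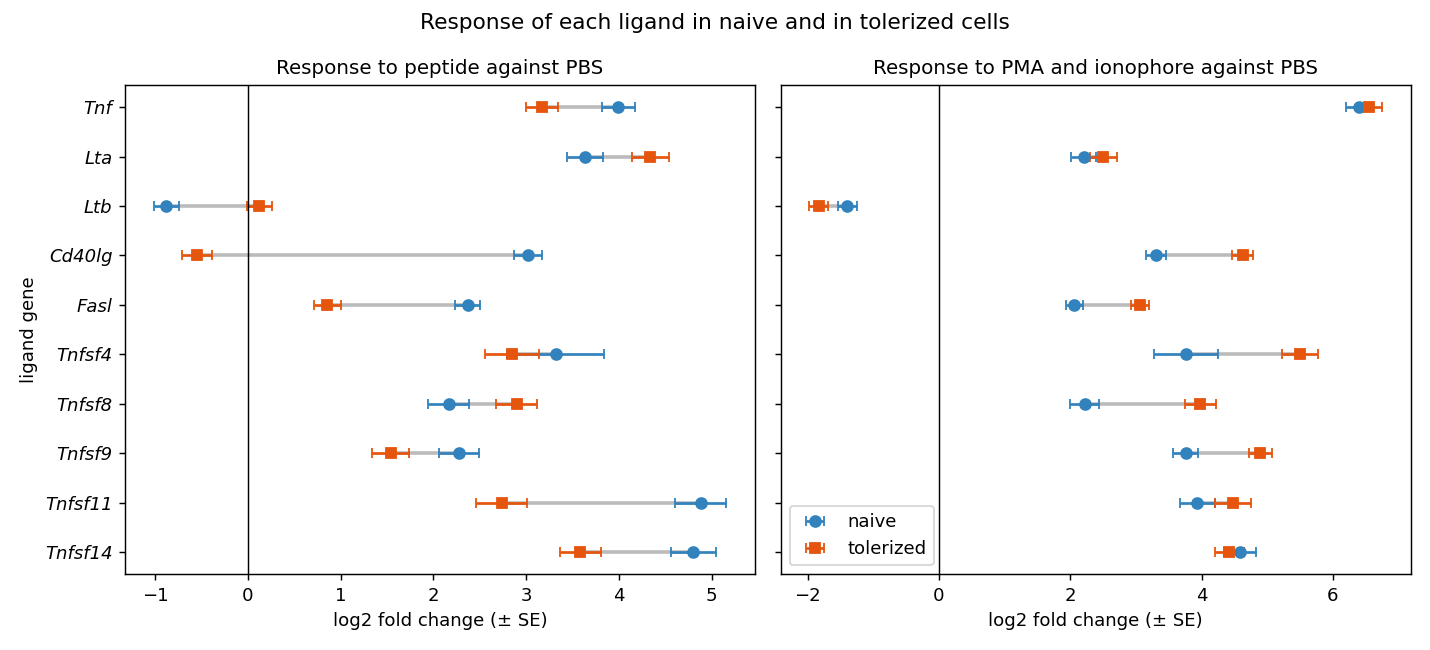
Log2 fold change (± SE) of each ligand against PBS in naive (circles) and tolerized (squares) cells, for Ag in the mouse (left) and PI in culture (right). After Ag, Cd40lg was at 3.02 in naive and -0.55 in tolerized cells, while after PI all ligands but Ltb were above 0 in both.

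The difference between these responses was tested as an interaction in the same edgeR model. The response to Ag was weaker in tolerized cells for 5 of 10 ligands and stronger for 1, at an adjusted p under 0.05, beside 7.09% of tested genes with a weaker and 14.6% with a stronger response. Cd40lg differed most, by -3.57 ± 0.22 on the log2 scale (adjusted p = 9.01e-09), or 11.9-fold. Tnfsf11 differed by -2.15 ± 0.39 (adjusted p = 0.00151) and Fasl by -1.51 ± 0.19 (adjusted p = 6.82e-06). Both of these and Cd40lg kept the call without any single library, whereas the other weaker responses did not. Tnfsf14 differed by -1.22 ± 0.33 (adjusted p = 0.0179), and the call was lost without N0 replicate 2 (-0.96, adjusted p = 0.0575), N0 replicate 3 (-1.16, adjusted p = 0.0544) or T0 replicate 3 (-1.08, adjusted p = 0.058). Tnf differed by -0.82 ± 0.24 (adjusted p = 0.0233), and its call was lost with no filter on low counts (adjusted p = 0.0551), with sex as a covariate (0.052), with library totals alone (0.0596) and without N0 replicate 2, NAg replicate 3, T0 replicate 1, T0 replicate 2 or TAg replicate 2 (adjusted p from 0.0511 to 0.09). With the marker score of myeloid cells as a covariate Cd40lg, Fasl and Tnfsf11 remained. This score did not overlap between naive and tolerized libraries at rest or after Ag, so that the covariate cannot separate these markers from cell state. With female libraries only, of which T0 has 1, Cd40lg was at -3.44, Tnfsf11 at -2.11, Fasl at -1.65, Tnfsf14 at -1.56 and Tnf at -0.50. The stronger response was that of Ltb (1.0 ± 0.19, adjusted p = 0.00119), which was lower after Ag in naive cells and overlapped between T0 and TAg. For Tnfsf4, with at most 5 reads in an N0 library, the difference was -0.47 ± 0.66 (adjusted p = 0.687). For Lta (0.71 ± 0.28, adjusted p = 0.0911), Tnfsf8 (0.73 ± 0.30, adjusted p = 0.108) and Tnfsf9 (-0.73 ± 0.30, adjusted p = 0.0901) the difference missed the threshold. It passed for Lta without TAg replicate 2, for Tnfsf8 without NAg replicate 1 or T0 replicate 3, and for Tnfsf9 without NAg replicate 2 or T0 replicate 1.

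Set directly against each other, antigen-challenged tolerized and naive cells differed in opposite directions within the family. In TAg against NAg, 4 ligands were called lower and 2 higher, where 2.05% of tested genes were called lower and 3.61% higher. Lower were Cd40lg, the main signal to B cells, Tnfsf11, Fasl and Tnf. Cd40lg was at 8013, 8833 and 6719.8 in NAg against 340.2, 246 and 246 in TAg, 28.3-fold lower (log2 fold change -4.82 ± 0.17, adjusted p = 2.65e-12). Tnfsf11 was at 697, 469 and 712 in TAg, 5.60-fold below NAg (-2.49 ± 0.23, adjusted p = 2.61e-06). For both genes every TAg library was below every NAg library by a wide margin. Fasl was at 749, 775 and 1007 in NAg and 229, 212 and 261 in TAg, 3.60-fold lower (-1.85 ± 0.13, adjusted p = 3.66e-10). Tnf was at 2949.6, 2667 and 3395 in NAg and 1489, 1165 and 1385 in TAg, 2.23-fold lower (-1.16 ± 0.15, adjusted p = 1.85e-05). Library totals without the TMM factor gave -0.98 for Tnf, just inside 2-fold. The groups did not overlap for any of the 4 genes.

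Higher in TAg were the ligands of OX40 and CD30. Tnfsf4 was at 161, 97.8 and 149 in TAg, 4.34-fold above NAg (2.12 ± 0.28, adjusted p = 1.1e-05). Its log2 fold change was already 2.59 at rest, from low counts, and its Ag response differed by -0.47 (adjusted p = 0.687 in the edgeR interaction). Tnfsf8 was at 8259.9, 10810.2 and 9965 in TAg against 5064, 3260.0 and 2935 in NAg, 2.58-fold higher (1.37 ± 0.21, adjusted p = 0.000172). All TAg libraries were thus above all NAg libraries. Among the NAg libraries replicate 1 had the highest Tnfsf8 count. With the myeloid score as a covariate, the log2 fold changes were 1.71 for Tnfsf4 (adjusted p = 0.0048) and 1.05 for Tnfsf8 (adjusted p = 0.0199). The score was 0.44 to 1.91 in NAg and 2.12 to 2.56 in TAg, so that it cannot be told apart from cell state. It joins neutrophil markers, with a median log2 fold change of 3.46 in this comparison, and macrophage and monocyte markers, with one of -2.34. The neutrophil markers were called higher in TAg against NAg for 7 of 8 genes. Ltb was 1.70-fold higher in TAg (adjusted p = 0.000282), short of the limit. Lta (-0.02 ± 0.16), Tnfsf9 (-0.14 ± 0.17) and Tnfsf14 (-0.22 ± 0.18) had overlapping groups and adjusted p of 0.956, 0.548 and 0.366. The Lta values were 1465, 1237 and 1318 in NAg and 1714, 993 and 1263 in TAg. The median log2 fold change was -0.18 over the ligands and 0.01 over all tested genes.

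**Figure D3:**
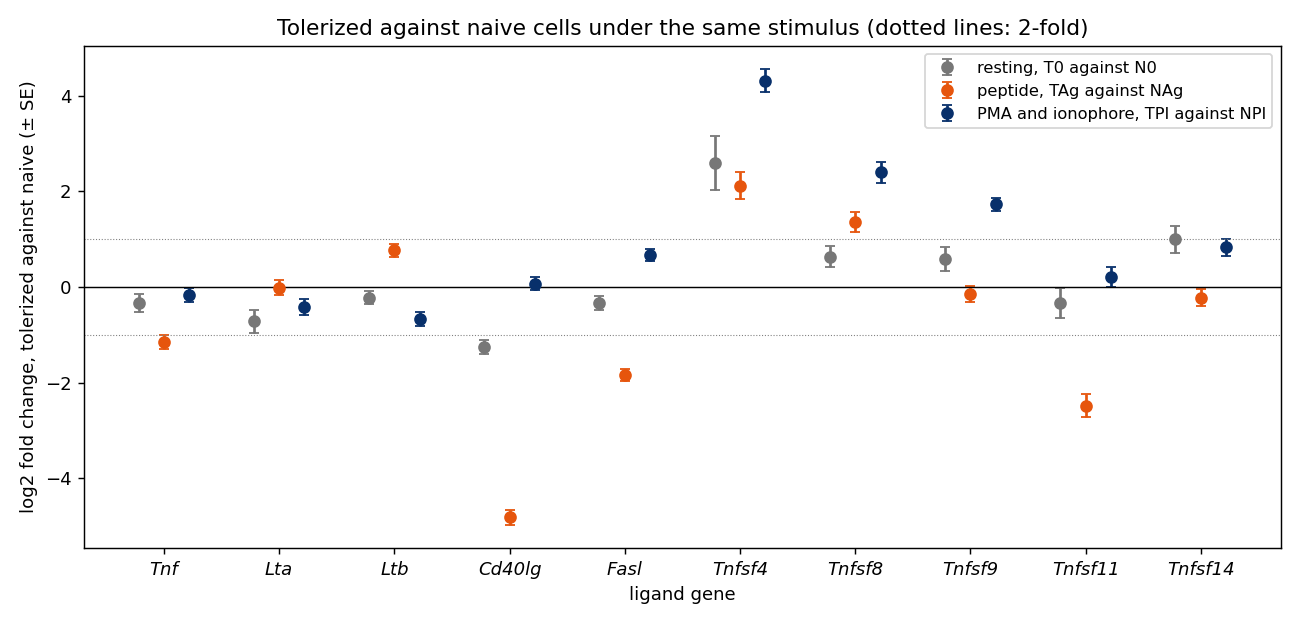
Log2 fold change (± SE) of each ligand in tolerized against naive cells at rest, after Ag and after PI. The Ag values of Cd40lg, Fasl, Tnf and Tnfsf11 lie below -1 and their PI values between -0.17 and 0.67, while Tnfsf4 and Tnfsf8 lie above 1 with both stimuli. At rest Tnfsf4 lies at 2.59 and Tnfsf8 at 0.64.

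After PI in culture nearly the whole family was higher than at rest in both cell states. No group was cultured without PI. PI and culture can therefore not be told apart in these comparisons or in the responses to PI below. In NPI against N0, 8 of 10 ligands were called higher and 1 lower, beside 10.1% and 10.3% of tested genes. In TPI against T0, 9 were called higher and 1 lower, beside 13.3% and 13.7%. The median log2 fold change was 3.53 in naive and 4.45 in tolerized cells, against -0.06 and -0.10 over all tested genes. Tnf rose most in both, 84.0-fold to 13841, 16665 and 16967 in NPI and 93.8-fold to 12611, 13928 and 15596 in TPI. Cd40lg, which Ag had not raised in tolerized cells, rose 24.7-fold in TPI (log2 fold change 4.63 ± 0.16, adjusted p = 1.03e-13) to 9796, 10102 and 10201. These libraries overlapped with the NPI libraries at 8750.0, 10717 and 9265. Ltb was the ligand called lower in both, by 2.63-fold in NPI and 3.56-fold in TPI, and fell to 726 ± 120.1 in TPI. Tnfsf4 reached 42.6 ± 2.84 in NPI, under the count limit, and rose 45.1-fold in TPI. NPI and NAg share the N0 controls, as TPI and TAg share the T0 controls.

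The response to PI was stronger in tolerized cells for 4 of 10 ligands and weaker for 0, beside 12.7% and 7.52% of tested genes. At an unadjusted p under 0.05, 5 were stronger and 1, Ltb, was weaker in edgeR, and DESeq2 gave 5 (with Tnfsf4) and 0. The 4 were Tnfsf8 (1.76 ± 0.30, adjusted p = 0.00093), Cd40lg (1.32 ± 0.20, adjusted p = 0.000175), Tnfsf9 (1.14 ± 0.29, adjusted p = 0.00653) and Fasl (1.0 ± 0.19, adjusted p = 0.000455). For Cd40lg this went with the lower resting level in T0, since the levels in NPI and TPI differed by 0.07 ± 0.14. Tnf (0.16 ± 0.24), Lta (0.30 ± 0.29), Ltb (-0.44 ± 0.19), Tnfsf4 (1.73 ± 0.82), Tnfsf11 (0.54 ± 0.38) and Tnfsf14 (-0.17 ± 0.33) missed the threshold, with adjusted p from 0.132 to 0.792. Ltb passed as weaker without TPI replicate 3 (-0.58), and Tnfsf4 as stronger without N0 replicate 2 (2.29).

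In TPI against NPI, 3 ligands were called higher and 0 lower by edgeR, beside 3.38% and 2.22% of tested genes. At an unadjusted p under 0.05, 5 were higher and 2, Ltb and Lta, lower, and DESeq2 also called 3 and 0. All 3 are ligands of costimulatory receptors on T cells. Tnfsf4 was at 39.5, 45.1 and 43.3 in NPI and 1003, 781 and 771 in TPI, 19.9-fold higher (log2 fold change 4.32 ± 0.25, adjusted p = 3.93e-10). Tnfsf8 was at 3334, 4276 and 4036 in NPI and 23761, 18768 and 18891 in TPI, 5.27-fold higher (2.40 ± 0.22, adjusted p = 1.22e-06). Tnfsf9 was at 228, 307 and 261 in NPI and 1005, 755 and 869 in TPI, 3.31-fold higher (1.73 ± 0.14, adjusted p = 1.02e-09). No TPI library overlapped with an NPI library for these genes, and all of these libraries were from male mice. Tnfsf14 (0.83 ± 0.18, adjusted p = 0.00199) and Fasl (0.67 ± 0.12, adjusted p = 9.54e-05) were higher and Ltb (-0.67 ± 0.14, adjusted p = 0.00113) lower by less than 2-fold. Tnf, Lta, Cd40lg and Tnfsf11 had adjusted p from 0.0628 to 0.746. The neutrophil markers summed to 63.7 to 170 in NPI and 396 to 673 in TPI. With the myeloid score as a covariate the log2 fold changes of Tnfsf4, Tnfsf8 and Tnfsf9 were 3.81, 2.0 and 1.62. Here too the score did not overlap between the cell states, at -1.71 to -1.14 in NPI and -0.34 to 0.26 in TPI. The median over the ligands was 0.44, and over all tested genes -0.04.

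Whether the gap between tolerized and naive cells depended on the stimulus was tested as a further contrast, (TPI against NPI) against (TAg against NAg), which was added after the data had been seen. The ratio of tolerized to naive cells was higher with PI than with Ag for 8 of 10 ligands and lower for 1, where 17.2% of tested genes were higher and 20.0% lower. For Cd40lg the ratio differed by 4.89 ± 0.21 on the log2 scale (adjusted p = 3.12e-11), for Tnfsf11 by 2.69 ± 0.32, for Fasl by 2.52 ± 0.18 and for Tnf by 0.99 ± 0.21 (adjusted p = 0.0013). These are the ligands that were called lower in TAg than in NAg, a comparison that is itself part of this contrast, so that the match is not independent. The ratios of Tnfsf4 (2.20 ± 0.39), Tnfsf9 (1.87 ± 0.22), Tnfsf14 (1.05 ± 0.25) and Tnfsf8 (1.03 ± 0.29) were higher with PI as well. Ltb had a lower ratio with PI (-1.44 ± 0.20, adjusted p = 1.75e-05), and Lta did not pass (-0.41 ± 0.23, adjusted p = 0.198). Lta passed as lower without TAg replicate 2 (-0.58). Ag was given in the mouse and PI in culture, so that the stimulus and the setting cannot be told apart. With sex as a covariate the same 8 ligands were higher and Ltb lower, with 4.86 for Cd40lg. Only T0 and TAg hold libraries of both sexes, so that this covariate cannot show a sex effect particular to PI or to naive cells.

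The stimuli also differed within each cell state. In NPI against NAg, Tnf (5.27-fold) and Tnfsf9 (2.80-fold) were called higher and Lta (2.70-fold) lower, where 14.3% of tested genes were called higher and 13.1% lower. Tnfsf11, 1.93-fold lower in NPI (adjusted p = 0.00185), passed the 2-fold limit without NAg replicate 3 (log2 fold change -1.05). The log2 fold change of Lta was -0.98 with an adjusted p of 0.0769 with the myeloid score as a covariate. This score did not overlap between these groups, at 0.44 to 1.91 in NAg and -1.71 to -1.14 in NPI. In TPI against TAg, 7 ligands were called higher and 2 lower, beside 12.4% and 13.1%. Cd40lg was 36.2-fold, Tnf 10.4-fold, Tnfsf9 10.2-fold, Tnfsf4 6.26-fold, Fasl 4.63-fold, Tnfsf11 3.35-fold and Tnfsf8 2.12-fold higher in TPI. Tnfsf8 fell just under 2-fold without TAg replicate 1 (0.99) or TPI replicate 1 (0.97). Lta and Ltb, the chains of the lymphotoxin complex, were 3.58-fold and 3.87-fold lower in TPI than in TAg. The median log2 fold change over the ligands was -0.08 in NPI against NAg and 1.98 in TPI against TAg, beside 0.08 and 0.01 over all tested genes.

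**Figure D4:**
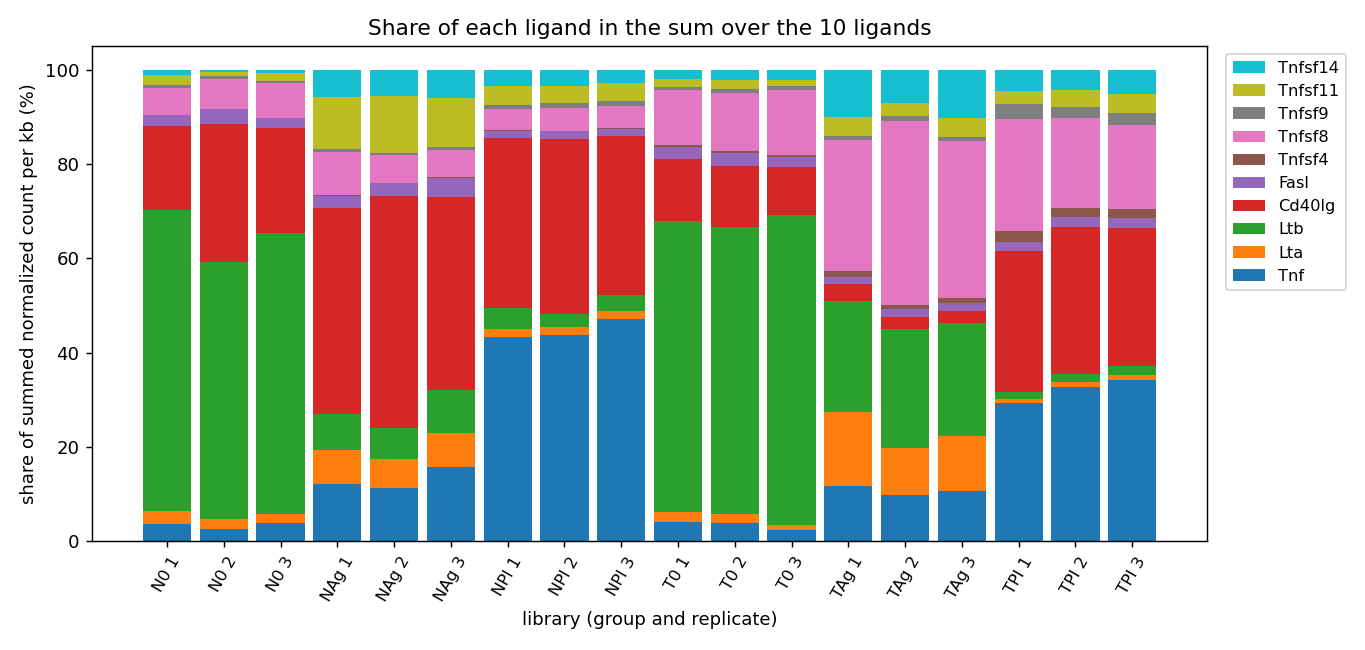
Share of each ligand in the normalized count per kb summed over the 10 ligands (%), 1 bar per library. Ltb makes up most of the sum at rest, Cd40lg is the largest part in NAg and a thin band in TAg, where Tnfsf8 is the largest, and Tnf and Cd40lg lead in both PI groups.

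Summed over the 10 ligands, the normalized count per kb was 3372 ± 127 in N0, 14084 ± 830.3 in NAg and 21574 ± 1897 in NPI, and 2713 ± 342 in T0, 7655 ± 349 in TAg and 26721 ± 1018 in TPI. In NPI, Tnf held 44.7% ± 2.03 and Cd40lg 35.5% ± 1.66 of it, with overlapping levels. In TPI, Tnf held 32.0% ± 2.52, Cd40lg 30.1% ± 0.955 and Tnfsf8 20.2% ± 3.13. Tnfsf4 and Tnfsf9 remained minor, at most 2.0% ± 0.343 and 2.67% ± 0.388 in TPI.

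The order of groups differed between most of the ligands. Tnf was highest in NPI and TPI, which overlapped, followed without overlap by NAg, TAg and the resting groups, which overlapped. Lta had its peak with Ag, in NAg and TAg, which overlapped, and then fell stepwise to NPI, TPI, N0 and T0 without overlap. Ltb was highest in N0, TAg and T0, whose neighbors overlapped, with NAg, NPI and TPI below them. Cd40lg was at similar levels in TPI, NPI and NAg, with neighbors that overlapped, and below these came N0, T0 and TAg in separate ranges. Fasl overlapped between TPI and NAg and between NAg and NPI, above TAg, N0 and T0. Tnfsf4 and Tnfsf8 were highest in TPI, then TAg, then NPI and NAg, which overlapped, and NAg overlapped with T0 for Tnfsf4. Tnfsf9 was highest in TPI and next in NPI, Tnfsf14 highest in TPI, and Tnfsf11 highest in NAg, above TPI without overlap.

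By position the family falls into few loci. In mm9 (NCBIM37), Ltb (chr17:35331384-35333265, + strand), Tnf (chr17:35336326-35338952, - strand) and Lta (chr17:35340110-35342296, - strand) lie side by side, and Tnfsf9 (chr17:57244808-57247180, + strand) and Tnfsf14 (chr17:57328915-57333612, - strand) further along the same chromosome. Tnfsf4 (chr1:163325581-163348337, + strand) and Fasl (chr1:163710820-163718626, - strand) share chromosome 1. Tnfsf8 (chr4:63492342-63522381, - strand), Tnfsf11 (chr14:78677252-78707850, - strand) and Cd40lg (chrX:54465320-54477219, + strand) lie apart. None shares exonic sequence with another annotated gene. Tnf and Lta were both called higher in each stimulated group against its resting group, as were Tnfsf9 and Tnfsf14. Ltb was lower in NAg, NPI and TPI than at rest, and in NPI against NAg, Tnf was higher and Lta lower. Fasl was lower in TAg than in NAg and Tnfsf4 higher.

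Promoter sequences were looked up in RefSeq for the build GRCm38.p6, which held 7 of the 10 ligands (not Cd40lg, Tnfsf4 or Tnfsf9). The 250 bases before the start of each were searched on both strands for the NFAT core TGGAAA, the AP-1 site TGANTCA, the CRE site TGACGTCA and the kappaB core GGANTTTCC, with N for any base, which were found in 18.6%, 6.75%, 1.55% and 1.07% of 32851 promoter windows of this length. Tnf held an NFAT core 181 bases before the start on the opposite strand, Ltb a kappaB core 87 bases before it on the opposite strand, and Tnfsf14 an AP-1 site at 160 and an NFAT core at 146 bases. Lta, Fasl, Tnfsf8 and Tnfsf11 held none of these exact letters in this window. The 190 bases before the start are shown for the 3 genes with a match and for Lta, the neighbor of Tnf, 5′ to 3′ along the gene, with the matches in capitals. They are chr17:35202008-35202197 (- strand) for Tnf, chr17:35205352-35205541 (- strand) for Lta, chr17:35194317-35194506 (+ strand) for Ltb and chr17:57194182-57194371 (- strand) for Tnfsf14. A match is a match of letters and was not tested as a binding site.
Tnf: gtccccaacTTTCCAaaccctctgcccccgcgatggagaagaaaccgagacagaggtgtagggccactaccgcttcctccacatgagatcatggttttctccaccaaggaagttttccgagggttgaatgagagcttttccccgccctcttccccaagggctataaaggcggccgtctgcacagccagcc
Lta: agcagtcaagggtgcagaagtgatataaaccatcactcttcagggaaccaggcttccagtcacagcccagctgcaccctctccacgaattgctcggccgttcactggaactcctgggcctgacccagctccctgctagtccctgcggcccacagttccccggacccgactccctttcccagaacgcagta
Ltb: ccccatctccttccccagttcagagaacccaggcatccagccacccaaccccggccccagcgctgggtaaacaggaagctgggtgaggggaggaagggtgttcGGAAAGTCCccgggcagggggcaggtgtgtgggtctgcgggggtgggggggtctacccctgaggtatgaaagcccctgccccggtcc
Tnfsf14: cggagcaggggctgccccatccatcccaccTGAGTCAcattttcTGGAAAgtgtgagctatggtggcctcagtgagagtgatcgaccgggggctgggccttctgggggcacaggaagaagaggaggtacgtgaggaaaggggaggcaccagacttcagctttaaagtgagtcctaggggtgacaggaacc

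The receptors of these ligands were measured in the same libraries, and 11 of 11 listed receptor genes were tested. In NAg against N0, 6 receptors were called higher and 1 lower, in TAg against T0, 6 and 0, in NPI against N0, 5 and 0, and in TPI against T0, 4 and 0. Their median log2 fold changes were 2.04, 1.69, 0.78 and 0.92, beside 0, -0.05, -0.06 and -0.10 over all tested genes. Of all tested genes 14.2% were called higher and 16.2% lower in the first of these comparisons, 12.1% and 11.3% in the second, 10.1% and 10.3% in the third and 13.3% and 13.7% in the last. Tnfrsf9 (4-1BB) rose 24.9-fold in NAg and 32.5-fold in TAg, and Tnfrsf4 (OX40) 10.3-fold and 15.6-fold. No receptor was called in TAg against NAg, where 5 were higher and 3 lower at an adjusted p under 0.05 without the fold limit, and none in T0 against N0, where 2 were higher and 3 lower in the same way. The counts at an unadjusted p under 0.05 were the same in both comparisons. Of all tested genes 3.61% were called higher and 2.05% lower in TAg against NAg, and 2.61% and 0.644% in T0 against N0. In TPI against NPI, Tnfrsf4 (4.52-fold) and Tnfrsf1b (3.27-fold), the receptor of OX40 ligand and a receptor of TNF, were called higher, and Tnfrsf1a, the other TNF receptor, lower (log2 fold change -1.20 ± 0.09). There 3.38% of tested genes were called higher and 2.22% lower. Tnfrsf4 was thus called higher in the same comparison as its ligand Tnfsf4. The levels of 3 further receptors are given by choice after their values were seen. Ltbr, the receptor of lymphotoxin and LIGHT, had means from 9.43 to 31.6, and Tnfrsf11a, the receptor of RANKL, had means from 9.18 to 29.7. Tnfrsf14 (HVEM), a receptor of LIGHT, had means from 1361 to 2572.

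Of the other TNF superfamily ligands listed, 5 of 7 with a row were tested and only Tnfsf10 (TRAIL) had a mean above 10 in any group. It was 2.21-fold higher in TAg than in NAg and lower after PI in both cell states. Of 15 adaptors and inhibitors that act below the receptors, 6 were called higher in NAg, 7 in TAg, 6 in NPI and 10 in TPI against their resting group, and 1 lower in each, beside 14.2%, 12.1%, 10.1% and 13.3% of tested genes called higher and 16.2%, 11.3%, 10.3% and 13.7% lower. None was called in T0 against N0, where edgeR had 0 higher and 6 lower at an unadjusted p under 0.05. Traf4 was the single one called in TAg against NAg, as lower (log2 fold change -1.23 ± 0.08), and Traf1 (2.74-fold) and Cflar, an inhibitor of caspase 8 (2.36-fold), were higher in TPI than in NPI. Of all tested genes 2.61% were called higher and 0.644% lower in T0 against N0, 3.61% and 2.05% in TAg against NAg, and 3.38% and 2.22% in TPI against NPI. The sheddases Adam10 and Adam17, which release TNF and other ligands from the membrane, were called in no pairwise comparison of groups. The share of tested genes called in 1 direction ranged from 0.644% to 16.2% over these comparisons. Rhbdf2 (iRhom2), a helper of Adam17 that cleaves no ligand itself, was 2.83-fold higher in NPI and 3.23-fold higher in TPI than at rest.

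The 3 genes whose log2 counts followed each ligand most closely over the 18 libraries were found by Pearson's r. These values are descriptions, since the libraries share 6 groups and any gene with the same group means gives a high r. Nearest to Tnf were Il4ra (r = 0.993), Kpna1 and Ptbp1, to Lta Impdh2 (0.986), Eif3i and Slc7a5, and to Ltb Cep68 (0.985), Tysnd1 and Usp5. Cd40lg was followed by Gm11932 (0.978), Frat2 and D130062J21Rik, and Fasl by Ppp1r16b (0.987), Crem and Acsl4. Tnfsf4 was closest to Ctla4 (0.972), A430093F15Rik and Il10 (0.969), the first an inhibitory receptor and the last an immunosuppressive cytokine. Tnfsf8 was closest to Zfp703 (0.989), Slc12a4 and Stx11, and Tnfsf9 to Dusp16 (0.989), Ptpn23 and Wsb1. Tnfsf11 was closest to Traf4 (0.982), Kdm2b and Actg1, and Tnfsf14 to the transcription factor Irf4 (0.990), Map3k8 and Srgn.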

How the data were processed

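RNA was sequenced from CD4 T cells of 18 biological samples, 3 in each of 6 groups, with rRNA depletion and paired-end reads. The authors used TopHat 2.1.1 with the mm9 (NCBIM37) genome for alignment and HTSeq 0.9.1 for counting per Ensembl gene, and deposited raw counts for each library. The strand and overlap settings of the counting are not given in the sources used here, and none of the 10 ligands overlaps another gene's exons. The submitters' processing notes also name DESeq2 1.18 and edgeR 3.24.

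Here, TMM factors were computed over all genes with a count in any library. Genes whose mean normalized count reached 3 in any group were then kept (17240 of 37991). They were fitted with all 6 groups in edgeR 4.0.16 (R 4.3.3) by the quasi-likelihood test. Comparisons between groups and interactions were contrasts of this fit, two-sided, with Benjamini-Hochberg adjustment over all tested genes. Library totals ranged from 10758571 to 24119489. In comparisons between groups, genes without a mean normalized count over 50 in the higher group were not called, a limit taken from the paper's methods. Several comparisons share N0, T0, NAg or TAg libraries. Simulated counts with known changes were made for the N0 and NAg libraries only and fitted with these groups alone. The fit of all 6 groups and the interactions were not tested in this way.

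All 10 ligands were described, and of the companion lists at most 4 called genes with the largest change in a comparison were named. The ligands, the lists and the motifs were chosen with earlier results of these data known. The alternatives were DESeq2 1.42.0 (Wald test and size factors), no filter, only the groups compared, a replicate block, sex and marker scores as covariates, adjusted p alone and leaving out each library. Library totals alone, female libraries only and the contrast of the tolerized to naive ratio between PI and Ag were added after seeing the data. Replicates with the same number did not deviate together: 27 correlations between groups, over 10361 genes, ranged from -0.486 to 0.237 and 6 were over 0.1. In TAg against T0 (-0.166, -0.25 and -0.486) each pair joined a male and a female library, so that pairing and sex cannot be told apart there. Promoter sequences are from RefSeq (GRCm38.p6), whose coordinates differ from those of mm9. Of 8 further TNF superfamily ligands listed, 7 were matched to a gene in the files.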

Additional observations from a re-analysis of the deposited data

Results flagged for a closer look

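Responses that differed between tolerized and naive cells, at an adjusted p under 0.05 for the difference in edgeR (n = 3 in each group) are given here. Differences are on the log2 scale, tolerized minus naive.

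For the response to Ag, the difference was -3.57 for Cd40lg, -2.15 for Tnfsf11, -1.51 for Fasl, -1.22 for Tnfsf14, -0.82 for Tnf and 1.0 for Ltb. For the response to PI it was 1.32 for Cd40lg, 1.0 for Fasl, 1.76 for Tnfsf8 and 1.14 for Tnfsf9. Cd40lg and Fasl were the ligands that differed in both responses, in opposite directions.

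The ratio of tolerized to naive cells with PI, relative to that with Ag, differed by 4.89 for Cd40lg, 2.69 for Tnfsf11, 2.52 for Fasl, 2.20 for Tnfsf4, 1.87 for Tnfsf9, 1.05 for Tnfsf14, 1.03 for Tnfsf8, 0.99 for Tnf and -1.44 for Ltb. In this contrast the sex of the mice differs between the PI libraries and all but 1 of the Ag libraries.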

How the results depend on the processing

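The counts of 2 ligands higher and 4 lower in TAg against NAg became 3 higher (with Ltb) with adjusted p alone and 3 lower (without Tnf) with library totals alone, and were the same under the other alternatives. Those in TPI against NPI (3 and 0) changed with adjusted p alone only, to 5 higher and 1 lower. Adjusted p alone also gave 1 ligand lower in NAg against N0, 1 lower in TAg against T0, 2 higher and 2 lower in T0 against N0 and 4 lower in NPI against NAg. In T0 against N0, 1 was called higher (Tnfsf14) with DESeq2 or its size factors, the groups compared fitted alone, the replicate block or library totals alone. The replicate block changed no other call. The 1 lower there became 0 with the myeloid score or female libraries only, which hold 1 T0 sample, assumed to vary like the other groups. The 1 lower in NPI against NAg became 2 with only the groups compared, sex or library totals, and 0 with the myeloid score. In the Ag response, 2 were stronger with DESeq2 or the B cell score, and in place of 5, 3 were weaker with the myeloid score, 2 with female libraries, and 4 (without Tnf) with no filter, sex or library totals. Library totals alone moved the median log2 fold change over all genes by up to -0.79 (TPI against T0), and gave 1 lower ligand in NAg against N0, 1 weaker PI response and 2 lower ratios. Leaving out single libraries gave 0 to 1 lower in NAg against N0, 0 to 1 higher in T0 against N0, 1 to 2 lower in NPI against NAg and 6 to 7 higher in TPI against TAg. It gave 1 to 2 stronger and 3 to 6 weaker Ag responses (3 without N0 replicate 2), 4 to 5 stronger and 0 to 1 weaker PI responses, and 1 to 2 lower ratios. The other counts were the same whichever library was left out. Smaller moves were 8 to 9 higher in NAg and in NPI against N0, 7 to 8 in TAg against T0 and 7 to 8 in TPI against TAg with adjusted p alone. The count in TPI against TAg was 8 with the myeloid score (with Tnfsf14) and 6 with library totals (without Tnfsf8), and PI responses were stronger for 5 with DESeq2. The cause was not tested for any of these.

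Signs reversed for uncalled log2 fold changes only. With library totals these were Ltb in TAg against T0 (-0.20), Lta (0.16) and Tnfsf9 (0.035) in TAg against NAg, Cd40lg in TPI against NPI (-0.046), Tnfsf8 in NPI against NAg (-0.13) and the PI response of Tnf (-0.063). With female libraries they were Ltb in TAg against T0 (-0.15) and T0 against N0 (0.026) and Lta in TAg against NAg (0.016). With the myeloid score they were Tnfsf8 in T0 against N0 (-0.037), Tnfsf11 in TPI against NPI (-0.030), Tnfsf14 in NPI against NAg (0.28) and its PI response (0.010). With only the groups compared, it was Tnfsf8 in NPI against NAg (-0.019). Over single libraries left out, Lta in TAg against NAg ranged from -0.25 to 0.15, Tnfsf8 in NPI against NAg from -0.11 to 0.32, the Ag response of Tnfsf4 from -1.0 to 0.094 and the PI response of Tnfsf14 from -0.49 to 0.090. The values of Tnfsf4 against N0 rest on low counts, with at most 5 reads in an N0 library.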
